A study of Mus musculus with 12 samples.

Results

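The early risers are microarray probes whose signal in embryonic mouse eyelid rose at least 2-fold from E14.5 to E16.5 (E for embryonic day), with more than 0.75 of that rise already made at E15.5. They were chosen on the authors' deposited log10 values, averaged over the 4 arrays of a stage with both genotypes together. The rise (E16.5 mean minus E14.5 mean) had to reach 0.301 on the log10 scale, the share of it made by E15.5 had to exceed 0.75, and the spot had to be flagged well above background in the eyelid channel on all 4 E16.5 arrays. Of 41999 probes in the value table, 392 met these conditions, or 1.3% of the 30186 probes with that flag. They were part of 2011 probes with a rise of that size, the others being 1374 graded risers (share from 0.25 to 0.75) and 245 late risers (share under 0.25). Because the stage means chose the members, every stage difference below is a description without a test.

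The study profiled eyelids of wild-type and Tabby embryos, both on the C57BL6/J strain, to look for targets of ectodysplasin during development of the Meibomian gland. Total RNA of microdissected eyelids was labelled with Cy3 (green) and hybridised on Agilent mouse arrays together with a Cy5-labelled (red) common reference, which pools RNA of several cultured mouse lines with some from embryonic stem cells. There were 12 arrays in 6 groups of 2 biological replicates: for each of the 3 stages E14.5, E15.5 and E16.5, a wild-type and a Tabby group. Tabby mice lack functional ectodysplasin throughout the body, so the labels' comparison is of whole mutant embryos with wild type, without a tissue-restricted driver. Nothing in the labels says how many embryos were pooled for a replicate. The labels' treatment protocol describes footpad skin at other stages. Their title, source and tissue say eyelid, and those entries were used here.

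Ectodysplasin is a ligand of the tumour necrosis factor family that signals through its receptor Edar to NF-kappaB in embryonic epithelium. It takes part in the development of hair follicles, teeth, sweat glands and Meibomian glands, the last of which secrete the oil of the tear film. During these embryonic days the mouse eyelids grow over the eye and fuse, while their epithelium stratifies and the dermis and eyelid muscle form beneath it.

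No gene names come with the probes. The scanner files describe every probe as of unknown identity (0 probes named), so members are given by probe ID with the 60-base probe sequence, and no role, pathway or marker of a cell type could be read from them. The labelled tissue was therefore not checked against marker genes. All 4 arrays of a stage lay on a slide of their own, with wild type at positions 1 and 2 and Tabby at positions 3 and 4. Stage and slide cannot be told apart, nor can genotype and position. In the median over all probes, the eyelid spot signal differed little between arrays, from 143 to 162 scanner units, and from 71.1% to 79.1% of probes were flagged well above background in that channel.

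The 10 members with the largest rise, in order of the rise, had the following probe sequences, shown 5′ to 3′ as the only identity these probes carry. The capitals mark the hexamer AATAAA, the commonest polyadenylation signal, where the probe contains it.
Z00026015-1: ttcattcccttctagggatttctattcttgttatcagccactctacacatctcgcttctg
Z00040026-1: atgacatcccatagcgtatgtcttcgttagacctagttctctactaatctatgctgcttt
Z00071877-1: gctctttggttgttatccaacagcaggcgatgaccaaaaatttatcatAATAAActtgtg
Z00031262-1: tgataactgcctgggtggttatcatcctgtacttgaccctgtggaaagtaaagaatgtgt
Z00022368-1: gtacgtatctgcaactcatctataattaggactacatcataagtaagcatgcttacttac
Z00024243-1: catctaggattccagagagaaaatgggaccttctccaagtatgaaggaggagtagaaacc
Z00025506-1: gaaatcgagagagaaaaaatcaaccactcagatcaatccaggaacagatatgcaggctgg
Z00040191-1: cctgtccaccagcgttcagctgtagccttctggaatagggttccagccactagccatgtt
Z00076300-1: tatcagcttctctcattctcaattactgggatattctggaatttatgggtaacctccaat
Z00033785-1: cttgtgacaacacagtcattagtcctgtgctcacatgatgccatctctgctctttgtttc

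Another 4 members are discussed below and are shown for that reason. The first 3 had the largest rises, after Z00022368-1, among members with a steady reference signal and most of the rise made by E15.5 in the eyelid channel, and were picked with their values known. The last had the smallest p-value of any genotype comparison in the log2 ratios of eyelid to reference. None of the 4 holds AATAAA.
Z00032183-1: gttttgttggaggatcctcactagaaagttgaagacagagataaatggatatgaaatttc
Z00059474-1: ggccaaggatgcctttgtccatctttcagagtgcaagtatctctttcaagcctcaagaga
Z00070866-1: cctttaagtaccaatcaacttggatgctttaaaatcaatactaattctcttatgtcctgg
Z00022648-1: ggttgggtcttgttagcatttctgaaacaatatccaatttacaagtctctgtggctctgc

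Because whole eyelids were sampled, more cells of a type and more RNA per cell cannot be told apart in any rise given here. By the authors' values the members rose by between 0.3018 and 2.44 on the log10 scale, with a median of 0.531. The rise was at least 4-fold in 159 members, at least 8-fold in 70 and at least 10-fold in 59. The share made by E15.5 had a median of 0.83. It lay between 0.75 and 0.8 in 135 members, between 0.8 and 0.9 in 143 and between 0.9 and 1 in 63, and exceeded 1 in 51, whose E15.5 mean was above their E16.5 mean. The highest shares were 2.01 for Z00062020-1, 1.51 for Z00039462-1, 1.40 for Z00022388-1 and 1.31 for Z00023493-1, all with rises under 0.42.

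The members just inside the share threshold were close to probes just outside it. Z00063258-1 had a share of 0.750024, followed by Z00005123-1 at 0.7504, Z00025108-1 at 0.750692 and Z00022979-1 at 0.751171. The nearest probes below were Z00000336-1 at 0.749919 and Z00026265-1 at 0.749846, the latter with a rise of 1.79 on the log10 scale. For the rise, Z00035514-1 at 0.3018 and Z00023563-1 at 0.30185 were the lowest inside. Z00024159-1 at 0.298625 and Z00030193-1 at 0.298375 were the highest outside among probes that met the share condition. Neither threshold fell at a gap in the values.

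On single arrays, all 4 E15.5 values exceeded all 4 E14.5 values in 376 of the 392 members, against 15.7% of all probes well above background at E16.5. All 4 E16.5 values exceeded all 4 E15.5 values in 149 members, against 12.6% of those probes, and all 4 lay below in 2. In the remaining 241 members the E15.5 and E16.5 arrays overlapped. The rule used these stage means, so nothing is read from the comparison with the background.

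The share is a share of a logarithm. Z00022368-1, with a share of 0.809, stood at E15.5 at 40.1% of its E16.5 level on the linear scale. Over all members the E15.5 level was 83.3% of the E16.5 level in the median, with quartiles of 74.6% and 90.1%, and was under 50% in 12 members.

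The name nearly complete by E15.5 was checked against the scanner signals of each channel, because the deposited values contain both. On each array the authors' value equalled the log10 processed Cy3 signal less the deviation of the log10 processed Cy5 signal from its mean over the arrays (correlation 1, largest difference 0.000163). A reference signal that rises with stage therefore lowers the late values. The reference is the same RNA on every array, yet in many members its signal rose with that of the eyelid.

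Z00026015-1, the member with the largest rise, shows this on the raw scale. Its eyelid spot signal at E14.5 was 49.0 and 50.3 scanner units in wild type and 48.6 and 51.7 in Tabby, at the level of the negative control spots, whose Cy3 medians ran from 48.9 to 54.9 over the arrays. At E15.5 it was 747 and 2764 in wild type and 2973 and 399 in Tabby. At E16.5 it was 47039 and 38223 in wild type and 38735 and 42305 in Tabby. The E15.5 signals were far below the E16.5 ones on all 4 arrays and differed between replicates of the same genotype.

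The reference signal of Z00026015-1 went the same way. It ran from 54.0 to 61.5 over the E14.5 arrays and was 64.7, 86.1, 86.1 and 65.8 at E15.5, on the arrays in the same order. At E16.5 it was 525, 441, 461 and 509. The higher E15.5 reference signals were on the same 2 arrays as the higher E15.5 eyelid signals. By the authors' values the share of this probe was 0.867 and its E15.5 level 47.4% of the E16.5 level, whereas in the processed eyelid signal alone the share was 0.635 and the level 2.42%.

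The same pattern stood in the other bright members of the 10. Z00071877-1 had E16.5 eyelid signals from 88613 to 102296, against 421 to 4392 at E15.5 and 51.4 to 56.4 at E14.5. Z00076300-1 went from 51.7 to 54.1 at E14.5, through 969 to 9536 at E15.5, to between 105526 and 136241 at E16.5, while its reference signal went from 51.9 to 58.9, through 81.2 to 360, to between 5488 and 7412. Its share was 0.995 by the authors' values and 0.664 in the eyelid channel. No member spot was flagged as saturated in either channel.

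**Figure D1:**
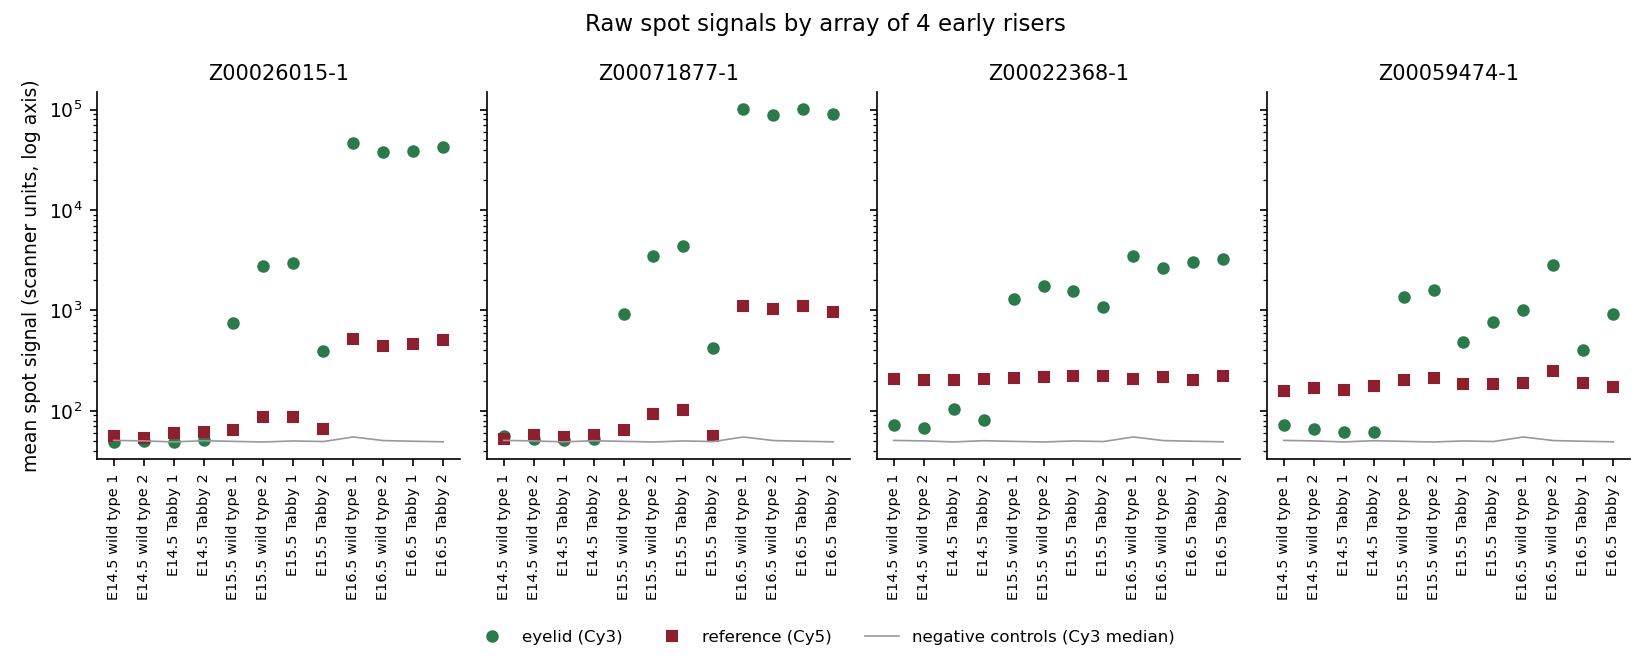
Mean spot signal of the eyelid (Cy3, circles) and the common reference (Cy5, squares) on each of the 12 arrays, in scanner units on a log axis, for 4 early risers, with the median of the negative control spots as a grey line. In Z00026015-1 and Z00071877-1 the reference rose with the eyelid signal and the E15.5 eyelid signals lay far below those of E16.5; in Z00022368-1 and Z00059474-1 the reference stayed between 158 and 248.

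Over all members, the reference signal rose from E14.5 to E16.5 by a median of 0.35 on the log2 scale (processed Cy5 signal), with quartiles of 0.07 and 1.59. The median over all 32981 probes tested was -0.002. The reference rose at least 2-fold in 129 of the 392 members (32.9%). The same held for 1.15% of all probes tested, for 7.21% of graded risers and for 8.98% of late risers. The values used by the rule subtract the reference, so the choice of members in part fixed these percentages, and nothing is read from their comparison. Among the 50 members with the largest rise by the authors' values, 37 had a reference rise of at least 2-fold. Among the 52 members with an E16.5 eyelid signal above 10000, the gain of the raw reference signal was 6.84% of the gain of the eyelid signal in the median, with quartiles of 2.94% and 13.4%. Why the reference signal rose with the eyelid signal was not tested.

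In the eyelid channel alone (processed Cy3 signal, each array less its 75th percentile on the log2 scale), 236 of the 392 members (60.2%) had a share above 0.75 and 156 did not, 8 of them under 0.5. For comparison, 322 of 2340 probes (13.8%) that rose at least 2-fold in that channel and were well above background at E16.5 had such a share. The authors' values contain the eyelid signal, so the rule itself favoured such shares, and nothing is read from this comparison. The median member share was 0.773, against 0.83 by the authors' values. The E15.5 level was under 50% of the E16.5 level in 122 members, against 12 by the authors' values, and under 10% in 17. For 41 members the eyelid signal was well above background on none of the E14.5 arrays, so their E14.5 level is only a bound. Among the 297 well above background on all 4 E14.5 arrays, 194 (65.3%) had an eyelid share above 0.75.

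The 2 measures parted in step with the reference signal, as follows in part from its subtraction in the authors' values. Of 177 members whose reference rose by less than 0.25 on the log2 scale, 83.1% had an eyelid share above 0.75. That was so for 54.7% of 86 members with a reference rise from 0.25 to 1, for 43.5% of 46 with a rise from 1 to 2, and for 26.5% of 83 with a rise of 2 or more. In the last of these the E15.5 eyelid level was 28.4% of the E16.5 level in the median, against 79.7% by the authors' values. The data thus bear out the name for part of the members only, and the members are called early risers here for their rule, not for a plateau.

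**Figure D2:**
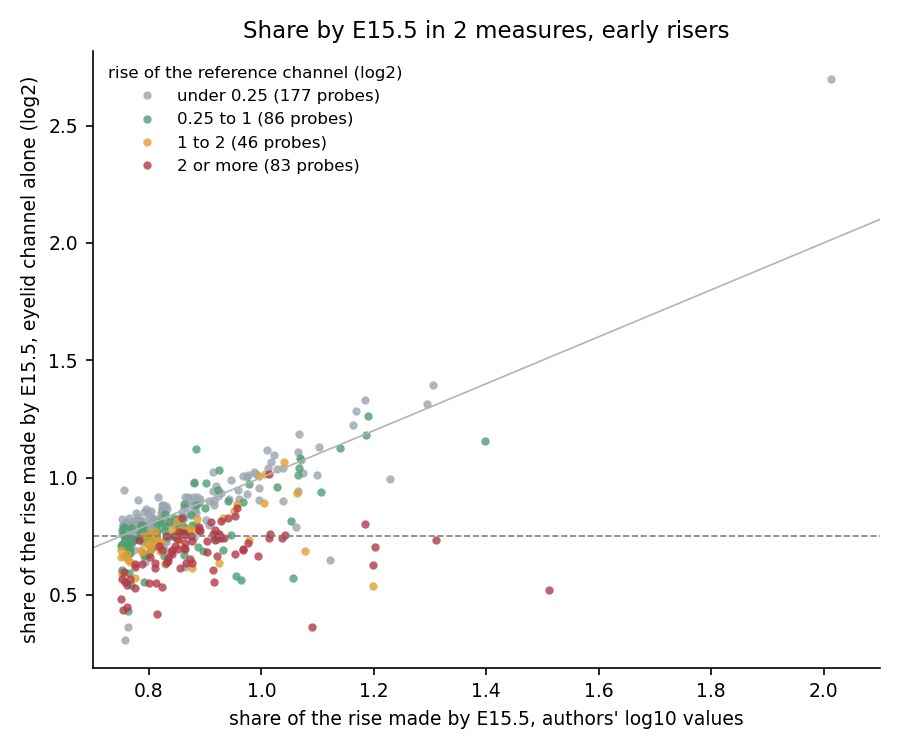
Share of the E14.5 to E16.5 rise made by E15.5 for each of the 392 members, by the authors' log10 values (x axis) and in the processed eyelid channel alone (y axis), coloured by the rise of the reference channel; the dashed line marks 0.75 and the grey line equality. Of the 83 members with a reference rise of 2 or more (log2), 26.5% lie above the dashed line, and of the 177 with a rise under 0.25, 83.1% do.

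A group of 172 members had an eyelid share above 0.75 together with a reference change of less than 0.5 on the log2 scale in either direction. Their median rise by the authors' values was 0.437 on the log10 scale, and 11 of them rose 10-fold or more. At E14.5, 147 of the 172 were well above background on all 4 arrays. Their E15.5 eyelid level was 85.6% of the E16.5 level in the median. This group was defined after the values had been seen.

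Z00022368-1 had the largest rise of this group. Its eyelid signal was 73.0 and 67.7 in wild type and 104 and 81.1 in Tabby at E14.5, then 1287, 1769, 1572 and 1092 at E15.5. At E16.5 it was 3451, 2660, 3058 and 3252, while the reference stayed between 202 and 224 throughout. All E15.5 arrays lay between those of the other stages, without overlap.

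Z00059474-1, another member of that group, had an eyelid share of 0.972. Its eyelid signals were 72.3, 65.7, 61 and 60.9 at E14.5 and 1363, 1608, 487 and 771 at E15.5. At E16.5 they were 1017, 2830, 408 and 921. The E15.5 and E16.5 arrays overlapped, and the 2 wild-type arrays at E16.5 differed from each other by more than the E15.5 and E16.5 means did. Z00070866-1 rose from between 63.5 and 79.8 at E14.5 to between 323 and 512 at E15.5, and at E16.5 to between 735 and 884, with its reference at or near the negative controls on all arrays (48.2 to 53.6). Z00032183-1 stood at background at E14.5 (50.9 to 52.9) and reached 87.2 to 125 at E15.5 and 169 to 207 at E16.5, so that its fold rise is a bound, at least 3.36-fold.

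Z00062020-1, with the highest share of all, was a transient riser in both measures. Its eyelid signal was 71.9, 69.0, 65.1 and 65.1 at E14.5, then 116, 135, 125 and 115 at E15.5. The E16.5 arrays stood at 79.97, 68.8, 85.6 and 88.0. The E15.5 arrays were the highest, without overlap, and the eyelid share was 2.70. Z00039462-1, next in order by the authors' values, had an eyelid share of only 0.522 and a reference rise of 2.04 on the log2 scale.

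The E15.5 arrays were not alike. By the authors' values, the members had reached a median share of 0.849 and 0.881 on the wild-type arrays and 0.911 and 0.73 on the Tabby arrays. In log2 ratios of eyelid to reference, rebuilt from the scanner signals with background correction and loess within each array, the medians were 0.6 and 0.823 in wild type and 0.828 and 0.663 in Tabby. The lowest E15.5 array was Tabby replicate 2 in 285 members by the authors' values, and in 312 in the eyelid channel alone. In the log2 ratios it was wild type replicate 1 in 222 members and Tabby replicate 2 in 142. Which array lagged thus depended on the measure, and the spread between replicates of 1 genotype was as large as that between genotypes.

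**Figure D3:**
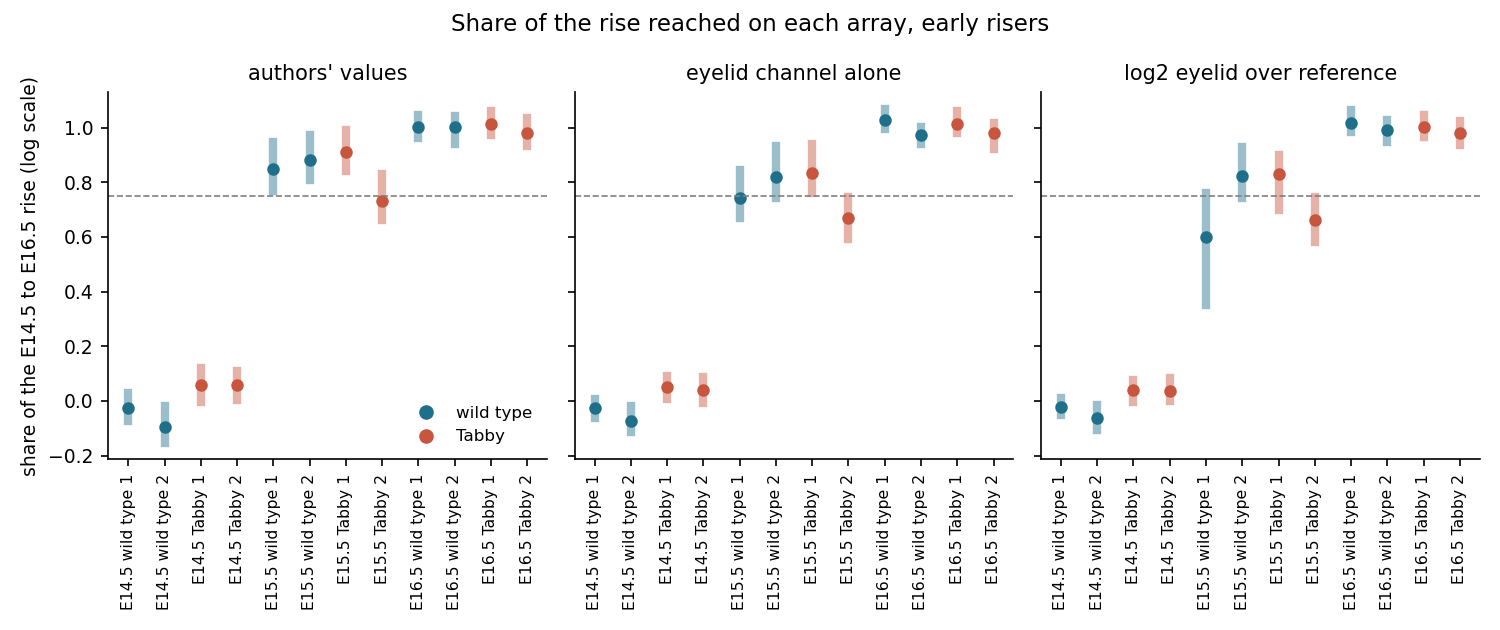
Share of the E14.5 to E16.5 rise reached by the 392 members on each of the 12 arrays (points: median; bars: quartiles), by the authors' values, in the eyelid channel alone and in log2 eyelid over reference; the dashed line marks 0.75. The E15.5 medians run from 0.73 to 0.911 by the authors' values and from 0.6 to 0.828 in the log2 ratio.

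Taken by genotype, the authors' values gave a share above 0.75 in 363 members on the wild-type arrays alone, in 294 on the Tabby arrays alone and in 265 on both. The wild-type share was the higher one in 271 members (69.1%). These counts use the values that chose the members, with no other probes counted beside them, so nothing about genotype is read from them. The 2 Tabby arrays at E15.5 also differed, with median shares of 0.911 and 0.73. In the log2 ratios 173 members had a share above 0.75 with both genotypes together.

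Genotype differences did not enter the choice of members and were tested with limma on the log2 ratios of all 32981 probes, with Benjamini-Hochberg adjustment over all of them and a call at an adjusted p under 0.05. All 392 members were tested, since the rule itself required detection at E16.5. None was called at E14.5, where 0.0% of all probes were, at E15.5 (0.0%), at E16.5 (0.0819% of all probes, 27 in number), or averaged over the stages (0.0303%). None was called in the test of whether the genotype difference changed from E14.5 to E15.5 (0.0% of all probes), from E15.5 to E16.5 (0.0%), or over all stages in an F test (0.00303%). At an unadjusted limma p under 0.05 there were 36 members (9.18%) at E14.5 against 2.40% of all probes, 11 (2.81%) at E15.5 against 6.70%, and 12 (3.06%) at E16.5 against 3.97%. Averaged over stages there were 22 (5.61%) against 5.86%. For the 2 changes between stages there were 21 (5.36%) against 2.47% and 10 (2.55%) against 5.28%, and for the F test 15 (3.83%) against 3.14%. The unadjusted counts by the authors' values were 84 (21.4%) at E14.5 against 4.10%, 25 (6.38%) at E15.5 against 6.91% and 16 (4.08%) at E16.5 against 6.39%. Averaged over stages they were 48 (12.2%) against 7.99%, for the changes between stages 68 (17.3%) against 3.57% and 17 (4.34%) against 6.29%, and for the F test 50 (12.8%) against 4.79%. After adjustment 1 member was called by those values, Z00052819-1 at E14.5 (0.00303% of all probes; log2 difference 2.24 ± 0.16, limma adjusted p of 0.0335). Its eyelid signals there stood near the negative controls, at 54.9 and 54.4 in wild type and 57.9 and 61.1 in Tabby, and its log2 ratio differed by 0.14 ± 0.37.

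The count at E15.5 rested on 1 array. Without wild-type replicate 2 of that stage, 62 members (15.8%) were called at E15.5, 58 of them higher in Tabby, against 6.85% of all probes. Averaged over stages, 26 were then called against 2.20%. In the changes between stages 10 were called against 2.26% and 23 against 2.73%, and in the F test 15 against 1.60%. The lone wild-type array left at E15.5 in that fit was assumed to vary like the other groups. It is the array on which the members stood lowest in the log2 ratios. A single array shows no spread of its own, so nothing about genotype is read from these counts or from their direction. In that fit the median member difference was 0.20 at E15.5 and 0.11 averaged over stages. It was 0.05 for the change from E14.5 to E15.5 and -0.27 for that from E15.5 to E16.5.

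At E14.5 the members stood slightly higher in Tabby. Their median log2 ratio was 0.12 and 0.07 on the wild-type arrays and 0.19 on both Tabby arrays. The median difference over the members was 0.13 on the log2 scale, against 0.005 over all probes, and it was positive in 314 members (80.1%), against 53.4% of all probes. Both Tabby arrays lay above both wild-type arrays in 228 of 391 members with a value on every array (58.3%), against 20.0% of all probes, and below them in 22 (5.63%), against 15.9%. By the authors' values the median difference was 0.22, against 0.003 over all probes, and it was positive in 313 members (79.8%), against 51.4%. Both Tabby arrays then lay above in 222 of 391 (56.8%), against 18.9% of all probes, and below in 28 (7.16%), against 17.0%. No test was made of the members as a set, and in the log2 ratios no member passed the test alone.

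The other risers and the brighter members were set beside this. Among graded risers the median difference was 0.05 and 71.3% were higher in Tabby, and among late risers it was 0.003 and 51.8% were. Over the 297 members well above background on all 4 E14.5 arrays the median difference was 0.16, with 253 higher in Tabby, and over the 172 members with a steady reference and an eyelid share above 0.75 it was 0.13.

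At E15.5 the median difference over the members was 0.04 in the log2 ratios and -0.08 by the authors' values, so its direction depended on the measure. It also depended on single arrays: in the log2 ratios it was -0.16 without wild-type replicate 1 and -0.11 without Tabby replicate 1, but 0.20 without wild-type replicate 2 and 0.18 without Tabby replicate 2 of that stage. At E16.5 it was -0.04 in the log2 ratios and -0.02 by the authors' values. Both Tabby arrays lay below both wild-type arrays at E16.5 in 89 members (22.8%), against 14.4% of all probes and 50.2% of late risers in the same log2 ratios, and above them in 56 (14.3%), against 14.3%. By the authors' values they lay above in 55 (14.1%), against 17.9% of all probes, and below in 67 (17.1%), against 11.6%. At E15.5 the Tabby arrays were above in 11 members (2.81%), against 19.2%, and below in 21 (5.37%), against 14.3%, in the log2 ratios. Those numbers by the authors' values were 26 above (6.65%), against 22.8%, and 62 below (15.9%), against 15.9%.

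**Figure D4:**
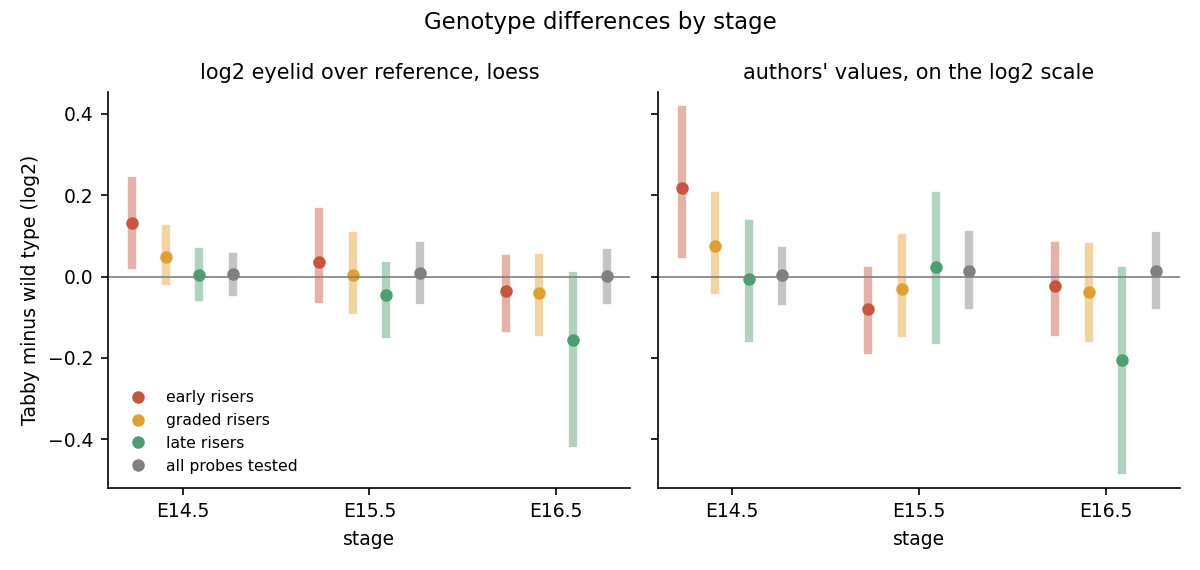
Difference between Tabby and wild type at each stage (points: median over probes; bars: quartiles) in log2 eyelid over reference and in the authors' values put on the log2 scale, for early, graded and late risers and for all probes tested. At E14.5 the early risers have a median of 0.13 in the log2 ratios and 0.22 by the authors' values; at the later stages their medians lie within 0.1 of 0 in both.

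In the log2 ratios, the members with the smallest p in each comparison did not pass the test. Z00022648-1 had the smallest of all in those ratios, at E15.5. Its eyelid signal was 64.3 and 103 in wild type and 68.9 and 69.3 in Tabby at E14.5, and 294 and 285 against 70.3 and 79.0 at E15.5. At E16.5 it was 183 and 128 against 120 and 114. The genotypes were far apart at E15.5, closer at E16.5 and overlapping at E14.5, and the reference stayed between 119 and 141. The log2 difference at E15.5 was -1.62 ± 0.20 (SE, limma, n = 2 against 2), with an adjusted p of 0.285. By the authors' values its share was 1.54 in wild type and 0.242 in Tabby. In the log2 ratios the change from E14.5 to E15.5 differed by -1.30 ± 0.28 (limma adjusted p of 1.00). That difference was -2.48 on the log2 scale by the authors' values, which did not pass the test either.

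Other members of smallest p were weaker. At E14.5 Z00074917-1 had eyelid signals of 408 and 362 in wild type and 794 and 620 in Tabby, a log2 difference of 0.79 ± 0.15. At the later stages its genotypes overlapped, and its reference rose from between 408 and 478 at E14.5 to between 1863 and 2420 at E16.5. Z00053293-1 at 0.53 and Z00044858-1 at 0.70 followed, and all had limma adjusted p-values of 1.00. Z00007394-1 had a difference of 3.01 ± 0.77 at E14.5, with eyelid signals of 62.9 and 63.8 in wild type and 2849 and 265 in Tabby. The Tabby arrays were unequal but both above wild type, and the difference was 1.94 without Tabby replicate 1. On that array the reference signal was raised too, at 232, against 71.1 on Tabby replicate 2 and 54.0 and 58.2 in wild type. The authors' values of the Tabby arrays lay closer together, at 2.77 and 2.68 on the log10 scale against 2.15 and 1.99 in wild type.

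At E15.5 Z00074700-1 was lower in Tabby by -0.40 and Z00009663-1 by -0.33, while Z00027281-1 was higher by 0.25 (limma adjusted p from 0.370 to 0.579). At E16.5 Z00045625-1 had the smallest p, with a log2 difference of -0.46 ± 0.08 and a limma adjusted p of 0.168. Its eyelid signals there were low, 105 and 88.3 in wild type and 75.2 and 65.3 in Tabby. Z00005123-1 had eyelid signals of 1011 and 665 in wild type and 252 and 175 in Tabby at E16.5, and reference signals of 245 and 185 against 89.1 and 73.4 on the same arrays. Its log2 ratio differed by -1.004 ± 0.254, whereas the authors' values, 2.06 and 2.08 against 2.097 and 2.05, did not separate the genotypes. Z00047207-1 at -0.30 and Z00016368-1 at 0.26 completed the smallest p-values of that stage.

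In GC content and the hexamer AATAAA, the only sequence properties set against all probes, the members differed little from them. The GC content was 43.3% in the median (quartiles 38.3% and 48.3%) against 45% over all probes tested. AATAAA, searched on the printed strand only, was present in 34 members (8.67%), against 7.31% of all probes tested, 7.79% of graded risers and 10.2% of late risers.

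Some members share bases with each other and so may not be independent measurements. With runs of at least 20 bases on the same strand counted, 15 pairs formed among 27 members, sharing from 22 to 58 bases. The shares of the rise differed by 0.0211 in the median within pairs, and at most by 0.273. The pairs with the longest runs are printed with the shared run in capitals, to show how far the probes of a pair overlap.
Z00006047-1: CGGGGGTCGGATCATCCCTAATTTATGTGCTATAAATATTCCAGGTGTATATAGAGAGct
Z00075559-1: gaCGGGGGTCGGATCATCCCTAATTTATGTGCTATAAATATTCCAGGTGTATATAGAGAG
Z00025525-1: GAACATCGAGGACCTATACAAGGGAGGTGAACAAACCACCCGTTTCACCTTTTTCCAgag
Z00059502-1: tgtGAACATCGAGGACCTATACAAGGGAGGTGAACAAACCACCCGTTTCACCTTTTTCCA
Z00025178-1: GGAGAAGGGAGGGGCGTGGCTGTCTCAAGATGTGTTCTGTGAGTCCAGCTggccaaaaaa
Z00064156-1: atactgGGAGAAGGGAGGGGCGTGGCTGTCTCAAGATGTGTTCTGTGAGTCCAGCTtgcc
Z00031086-1: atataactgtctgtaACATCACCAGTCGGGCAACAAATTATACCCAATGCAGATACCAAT
Z00059005-1: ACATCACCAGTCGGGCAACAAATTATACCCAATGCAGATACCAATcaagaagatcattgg

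Z00006047-1 and Z00075559-1, which share 58 bases, had shares of 0.794 and 0.815. Z00025525-1 and Z00059502-1, which share 57, had 0.754 and 0.761, and Z00025178-1 and Z00064156-1, which share 50, had 1.17 and 1.16. The pair Z00031086-1 and Z00059005-1, which shares 45 bases, was the one furthest apart, at 1.06 and 0.788. Both of its probes were dim, with eyelid signals from 69.8 to 88.2 at E16.5 and from 52.6 to 59.5 at E14.5.

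A further 9 probes that share at least 20 bases with a member on the same strand were not members. All 9 rose by at least 0.301, with shares from 0.191 to 0.745. The lowest, Z00031820-1, shares 25 bases with both Z00031086-1 and Z00059005-1 and rose by 0.807 with a share of 0.191.

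The members' sequences were also compared with the RefSeq gene start windows (250 bases before to 50 after the start, build GRCm38.p6) and mature and hairpin miRNAs. Only 5 members matched a gene start window over at least 20 bases, and none matched a miRNA. The match of Z00077696-1 lay after a start site: its first 20 bases are those of Shroom4 from base 31 to base 50 of the transcript (X:6400062-6400081, plus strand). The other 4 matched bases upstream of the start of Kit (both probes of the pair sharing 50 bases), Creld1 and Tpsg1, which names no transcript for them.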

How the data were processed

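The members, thresholds and lists were chosen with earlier results of these data known. Per the file headers, the scanner intensity of each spot in both channels was read with Agilent Feature Extraction 9.5.1.1, which also gave the flags. The value table deposited by the authors holds log10 values of 41999 probes; its formula was found by setting it against the scanner files. The array number limits the precision, and the labels call the 2 samples of a group biological replicates.

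Here, with limma 3.58.1 in R 4.3.3, mean intensities were background-corrected (normexp, offset 50) and loess-normalised within arrays, with 1417 control spots at weight 0. The sign was set so that a positive log2 ratio means more eyelid than reference RNA, with no dye swap. Outlier spots were dropped, and probes not well above background on both arrays of any group were left out, leaving 32981. The fit had 6 group means and 6 residual degrees of freedom, and was tested on simulated data. Gene lists drawn up for named probes could not be used. Where a group's eyelid signal was not well above background on any array, the fold is the bright group's mean over the lowest well-above-background signal. Probes named were the 10 largest rises, the 4 highest and lowest shares with the nearest probes outside, the members called or up to 4 of smallest p per comparison, and up to 4 pairs sharing sequence. Same-numbered replicates did not deviate together in every pair of groups (correlations from -0.0888 to 0.242), so no pairing was used.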

Additional observations from a re-analysis of the deposited data

How the results depend on the processing

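The choice of members depended on the measure. With a share above 0.8 the rule kept 257 probes, against 392. Applied afresh to all probes on loess log2 ratios it chose 141, which need not all be members. The median rise of the members as chosen was 0.478 (log10) in loess log2 ratios, 0.704 in the eyelid channel alone and 0.704 in the processed eyelid signal without scaling between arrays, an alternative added after the data had been seen, against 0.531. The median share was 0.738 in loess log2 ratios, 0.773 in the eyelid channel alone and 0.796 in the eyelid signal without scaling, against 0.83. The eyelid share thus moved with the scaling between arrays. Leaving out 1 array at a time gave from 340 to 510 members, a median rise from 0.519 to 0.545 and a median share from 0.814 to 0.873.

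The count of members called was 0 in every genotype comparison by limma. At E14.5 it became 1 with processed signals and loess and 1 with the authors' values, against 0.00303% of all probes by the latter. The share of all probes called with processed signals is not given here, so nothing is read from that call. Leaving out 1 array gave from 0 to 1 called members at E14.5 and at E16.5, from 0 to 62 at E15.5, from 0 to 26 averaged over stages, from 0 to 10 and from 0 to 23 for the changes between stages, and from 0 to 15 in the F test. The highest counts came without E15.5 wild-type replicate 2, and leaving out either E14.5 wild-type array called Z00022648-1 at E15.5. The replicate block gave 0 called members in each comparison, so that the numbering as a pairing changed no call. The difference of Z00005123-1 at E16.5 reversed to 0.00864 by the authors' values, to 0.00878 from processed signals and to 0.00871 from Feature Extraction's ratio. The cause of these changes was not tested. Over the arrays left out, the median member difference ran from 0.10 to 0.16 at E14.5, from -0.16 to 0.20 at E15.5 and from -0.07 to -0.01 at E16.5. Each group had only 2 arrays, and signals near the negative controls limit the shares of members dim at E14.5.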
